A study of Mus musculus with 5 samples.

Results

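The Wnt ligand genes that an earlier look at these arrays had singled out for the young mouse uterus are described here across Dicer conditional knockout (Dicer cKO) and control tissue: Wnt2, Wnt2b, Wnt4, Wnt5a, Wnt6, Wnt7a, Wnt7b, Wnt10a, Wnt11 and Wnt16. They were chosen by name, as every array probe whose gene name, given in capitals in the files (WNT2, WNT2B, WNT4, WNT5A, WNT6, WNT7A, WNT7B, WNT10A, WNT11 and WNT16), is 1 of these 10, which gave 19 of the 45281 probes on the array. A level here is a log2 signal after background correction and quantile normalization, and a difference is the Dicer cKO mean minus the control mean on that log2 scale. Of the 19 probes, 16, for 8 of the 10 genes, passed the filter on dim probes (2 or more of the 5 arrays with a detection p below 0.05), out of 15733 genes and 22845 probes that passed in all.

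The tissue was uterus of mice aged 15 days on a C57BL/6J;129S5/Brd mixed hybrid background. The 2 Dicer cKO pools (10 and 12) came from mice in which Cre, made from the progesterone receptor locus, deleted Dicer, the enzyme that cuts microRNA precursors to their mature form, and the 3 control pools (7, 9 and 11) are labelled as wild type. Each pool was hybridised to 1 Illumina bead array. Deletion is limited to cells in which that locus has been active. The labels do not say how many uteri made a pool or whether the controls carried Cre or the floxed allele. The SEs and p-values given here rest on how much single pools varied, which may be partly technical. In the limma fit the spread of each gene is drawn toward that of genes of similar signal. They therefore do not measure the pool-to-pool spread of 1 gene alone. A human bead chip is named in the labels, while the gene names in the files are those of mouse genes.

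Wnt proteins are secreted, lipid-modified signals. They bind Frizzled receptors together with the co-receptors Lrp5 and Lrp6, which stabilises beta-catenin and switches on genes through TCF and LEF factors, or together with Ror and Ryk receptors, which act through planar polarity and calcium signalling. In the mouse uterus Wnt7a made by the luminal epithelium patterns the tract and is needed for glands to form, Wnt5a comes from the stroma, and Wnt4 takes part in gland formation after birth and later in the stromal response to an embryo. Age 15 days falls in the period when mouse uterine glands form.

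Of the 8 ligands that could be tested, 4 rose in the Dicer cKO uterus and none fell. Wnt4 rose 2.87-fold, Wnt7b 2.27-fold and Wnt6 1.57-fold, each at an adjusted p under 0.05 in the limma fit over all tested genes. The other one, Wnt10a, was called too, but it was near background in the control pools, where 1 of 3 arrays detected it, so its fold is not given. Its detection on both Dicer cKO arrays was enough to pass the filter, so the counts and the median that include it are descriptions. Of the 7 ligands detected on all 5 arrays, 3 rose. The remaining 4 tested ligands, Wnt7a, Wnt5a, Wnt16 and Wnt2, were not called. Over all 15733 genes the same rule called 438 genes higher (2.78%) and 623 lower (3.96%), or 6.74% in either direction. The median difference of the 8 tested ligands was 0.77, against 0.01 over all tested genes. Both Dicer cKO pools lay above all control pools for 5 of the 8 tested ligands and below all control pools for 2, while 19.9% of all tested genes lay above in this way and 17.6% below (37.6% either way). At the level of probes, 8 of the 16 tested probes of the ligands were called higher and 0 lower, where 2.35% of all tested probes were called higher and 3.52% lower by limma (5.87% in either direction). The probe count is a description too, since several of these probes belong to the same gene. It also includes the Wnt10a probe and the dimmer Wnt7b probe, each detected on 1 of 3 control arrays, which passed the filter through the Dicer cKO arrays.

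The checks on the arrays bear on every value given here. Between 47.0% and 49.5% of probes were detected per array, and the median number of beads per probe was 44. Dicer1 itself, whose probes need not lie in the deleted part, had levels of 8.62 and 8.75 in the Dicer cKO pools, against 9.15, 9.08 and 9.12 in the control pools, a difference of -0.43 ± 0.09 (SE, limma adjusted p = 0.0224). That call was lost in 7 of 13 other settings, including when any 1 of the control pools was left out and without Dicer cKO pool 10 (adjusted p = 0.180). Pgr, which encodes the progesterone receptor and drives the Cre, differed by -0.77 ± 0.14 (SE, limma adjusted p = 0.00896), and this call was lost without Dicer cKO pool 10 (adjusted p = 0.113). Leaving out Dicer cKO pool 10 leaves 1 Dicer cKO pool, and fewer genes were then called over the whole array than the 1061 with all pools. Over all tested genes the median absolute difference in level was 0.148 between the Dicer cKO pools and 0.119 to 0.140 between control pools. It was 0.148 to 0.171 between Dicer cKO pool 12 and the control pools, and 0.181 to 0.210 between Dicer cKO pool 10 and the control pools.

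Wnt4 showed the largest difference of the ligands. The promoter window of Wnt4 and those of Wnt6 and Wnt16 are printed because Wnt4 and Wnt6 are the 2 ligands that rose and have an entry in the promoter table, and Wnt16 is a ligand that was not called, shown for comparison. They are the RefSeq windows of mouse build GRCm38.p6, from 250 bases before to 50 bases after an annotated start, with every CG dinucleotide in capitals. They are read 5′ to 3′ on the strand of the gene, and the start used need not be the outermost one of the gene.
Wnt4: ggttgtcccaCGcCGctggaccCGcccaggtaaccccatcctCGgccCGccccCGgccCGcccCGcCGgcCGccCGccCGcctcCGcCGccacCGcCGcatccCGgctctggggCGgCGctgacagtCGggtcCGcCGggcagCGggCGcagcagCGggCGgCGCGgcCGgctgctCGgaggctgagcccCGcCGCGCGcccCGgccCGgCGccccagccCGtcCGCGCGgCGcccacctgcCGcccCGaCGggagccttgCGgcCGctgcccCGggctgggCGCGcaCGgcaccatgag
Wnt6: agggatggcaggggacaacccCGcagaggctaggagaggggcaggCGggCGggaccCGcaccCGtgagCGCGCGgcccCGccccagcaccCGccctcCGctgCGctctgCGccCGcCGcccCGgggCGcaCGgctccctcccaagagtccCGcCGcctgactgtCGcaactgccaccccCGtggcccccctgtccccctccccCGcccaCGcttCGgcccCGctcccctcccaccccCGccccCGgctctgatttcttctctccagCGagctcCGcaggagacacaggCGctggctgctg
Wnt16: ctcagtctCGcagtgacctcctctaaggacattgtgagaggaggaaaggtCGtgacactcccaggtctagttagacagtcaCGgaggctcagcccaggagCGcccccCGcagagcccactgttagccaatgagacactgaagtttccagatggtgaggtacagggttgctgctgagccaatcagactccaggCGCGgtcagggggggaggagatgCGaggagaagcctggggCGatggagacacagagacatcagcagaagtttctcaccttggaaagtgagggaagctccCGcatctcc
The Wnt4 window lies at chr4:137277385-137277684 on the plus strand and is 84.3% G and C with 51 CG dinucleotides. Its G and C content was above that of 99.8% of the 32851 promoter windows in the table, whose median was 52.7% with 7 CG dinucleotides. The Wnt6 window at chr1:74771642-74771941, plus strand, is 76.7% G and C with 31 CG dinucleotides. It lies inside the annotated Wnt6 gene (74754342 to 74785322) and not at its outermost start. The Wnt16 window at chr6:22287977-22288276, plus strand, is 58.0% G and C with 10 CG dinucleotides. The outermost annotated start of Wnt16, at 22288178, lies within that window but before the start it was built on. Entries were found for 7 of the 10 ligands, in 8 windows, since Wnt11 had more than 1. Wnt5a, Wnt7b and Wnt10a had none. Ligands that were not called or not tested also had windows rich in G and C: Wnt7a had 76.0% with 42 CG dinucleotides, Wnt2b 79.7% with 43 and Wnt2 65.7% with 27, and the Wnt16 window was the lowest of the 8. No relation between base composition and the differences was tested. The motifs CTTTG (the core that TCF and LEF factors bind), TGTTCT (a steroid receptor half-site) and TATAAA (the TATA box) were searched on both strands. They occur in 53.9%, 19.0% and 13.6% of all windows of this length, and none of the 3 printed windows held a match to any of them.

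Wnt4 levels were 8.94 and 8.32 in Dicer cKO pools 10 and 12, against 7.05, 6.92 and 7.36 in control pools 7, 9 and 11. The groups did not overlap, and the lower Dicer cKO pool stood well above the highest control pool. The difference was 1.52 ± 0.19 (SE, 95% interval 1.10 to 1.94, limma adjusted p = 0.00146). As deposited, before normalization, the mean bead intensities of this probe were 486.3 and 355 in the Dicer cKO pools, against 178.7, 156.1 and 182.5 in the control pools, with standard errors (SD over beads divided by the square root of their number) between 5.26 and 18.9. A second Wnt4 probe read 7.93 and 7.42 in the Dicer cKO pools, against 6.06, 6.52 and 6.62 in the control pools. It gave a difference of 1.28 ± 0.20 (SE, limma adjusted p = 0.00388 over all probes), again without overlap. Wnt4 was called in all 13 other settings, with differences between 1.21 and 1.83, while the call of its second probe was lost without Dicer cKO pool 10 (1.02, adjusted p = 0.0821).

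**Figure D1:**
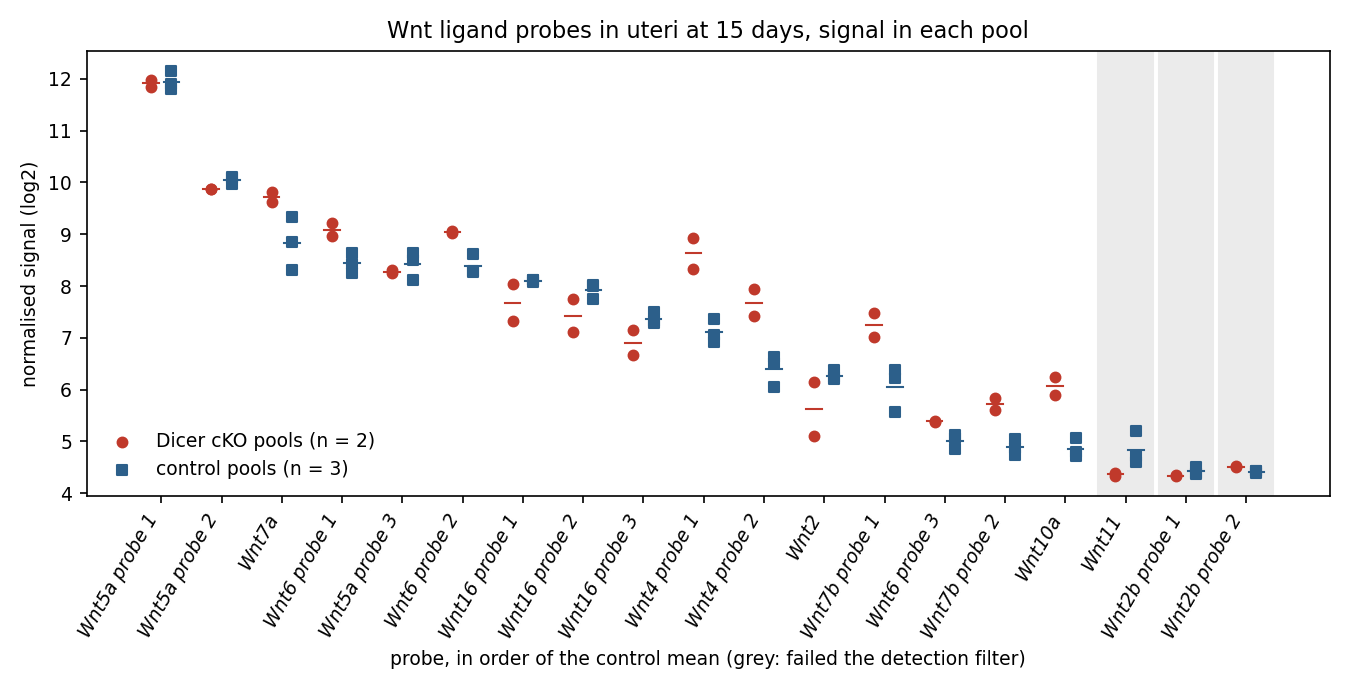
Normalised log2 signal (vertical axis) of all 19 probes of the Wnt ligands, in order of the control mean, with Dicer cKO pools left of control pools; points are single pools, bars are group means and grey marks probes that failed the detection filter. For the brighter Wnt4 probe the 2 Dicer cKO pools sit at 8.94 and 8.32, above the control pools at 6.92 to 7.36, while the points of the brightest Wnt5a probe overlap.

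Of the ligands associated with the uterine epithelium, Wnt7b rose. Its levels were 7.48 and 7.01 in the Dicer cKO pools, against 5.57, 6.22 and 6.38 in the control pools. The groups did not overlap, and control pool 7 was the lowest of all. The difference was 1.18 ± 0.24 (SE, 95% interval 0.66 to 1.71, limma adjusted p = 0.0156). A second, dimmer Wnt7b probe, detected on 1 of the 3 control arrays, read 5.84 and 5.62 in the Dicer cKO pools and 4.73, 4.88 and 5.04 in the control pools, a difference of 0.84 ± 0.15 (SE, limma adjusted p = 0.00906 over all probes). Both Dicer cKO arrays alone carried that probe past the filter, and its difference was 0.45 with a normexp offset of 50 and 0.50 with no background correction, so it adds little to the value of the brighter probe. Wnt7b was called in 12 of 13 other settings; without Dicer cKO pool 10 its difference was 0.95 with an adjusted p of 0.213, and the call of the second probe was lost there too (adjusted p = 0.134).

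Wnt7a, the epithelial ligand that patterns the tract, had levels of 9.81 and 9.63 in the Dicer cKO pools, against 8.31, 8.84 and 9.34 in the control pools. Both Dicer cKO pools were above every control pool, but the control pools were spread widely, with pool 7 lowest and pool 11 highest. The difference of 0.89 ± 0.23 (SE, 95% interval 0.37 to 1.41) had a limma adjusted p of 0.0501 over all genes and was not called. The same single probe had an adjusted p of 0.0482 when adjusted over all probes, which is 1 of the 8 probe calls above and was lost in most other settings. Over all genes Wnt7a was called with a normexp offset of 50 (adjusted p = 0.0490), with median scaling (adjusted p = 0.0380) and without control pool 11 (1.14, adjusted p = 0.00553). Wnt7a thus sat at the threshold, and its difference stayed between 0.63 and 1.14 when any single pool was left out.

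Wnt11, a ligand of the polarity branch, was dim. Its probe was detected on 1 array, control pool 7, and read 4.39 and 4.33 in the Dicer cKO pools, against 5.20, 4.59 and 4.72 in the control pools. It did not pass the filter, so it was not tested and no fold is given.

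Of the ligands associated with the uterine mesenchyme, Wnt5a was the brightest of all 10 and showed no called difference. Its levels were 11.85 and 11.98 in the Dicer cKO pools and 11.80, 11.89 and 12.15 in the control pools, so the groups overlapped. The difference was -0.03 ± 0.10 (SE, limma adjusted p = 0.909), with a 95% interval from -0.26 to 0.20. A second Wnt5a probe read 9.87 and 9.88 in the Dicer cKO pools, against 9.96, 10.11 and 10.09 in the control pools (-0.18 ± 0.09, SE, limma adjusted p = 0.284 over all probes). The dimmest of its probes read 8.25 and 8.30 in the Dicer cKO pools and 8.51, 8.64 and 8.11 in the control pools (-0.15 ± 0.15, SE, limma adjusted p = 0.651 over all probes).

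Wnt16 levels were 8.03 and 7.33 in the Dicer cKO pools, against 8.11, 8.12 and 8.08 in the control pools. The control pools were nearly level, Dicer cKO pool 10 lay just below them and Dicer cKO pool 12 was the low one. The difference of -0.43 ± 0.18 (SE, limma adjusted p = 0.207) was not called. Its other probes showed the same pools low: 7.75 and 7.11 in the Dicer cKO pools against 8.02, 8.0 and 7.75 in the control pools (-0.50 ± 0.18, SE, limma adjusted p = 0.147 over all probes), and 7.15 and 6.66 in the Dicer cKO pools against 7.32, 7.49 and 7.28 in the control pools (-0.46 ± 0.16, SE, limma adjusted p = 0.133 over all probes). The value rested on 1 pool: without Dicer cKO pool 10 the difference was -0.77 and called (adjusted p = 0.0256), and without Dicer cKO pool 12 it was -0.08.

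Wnt2 showed the reverse pool order. Its levels were 5.10 and 6.14 in the Dicer cKO pools, against 6.20, 6.37 and 6.24 in the control pools, so that here Dicer cKO pool 10 was the low one. The difference of -0.65 ± 0.25 (SE, limma adjusted p = 0.175) was not called. Without Dicer cKO pool 12 it was -1.16 and called (adjusted p = 0.00787), and without Dicer cKO pool 10 it was -0.13. The 2 Dicer cKO pools therefore did not give the same picture for Wnt2 or Wnt16.

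Wnt6 and Wnt10a, both canonical ligands, were called higher. They are adjacent protein-coding genes on mouse chromosome 1 in the RefSeq table. Wnt6 levels were 9.21 and 8.97 in the Dicer cKO pools, against 8.64, 8.43 and 8.26 in the control pools. The groups did not overlap, and the difference was 0.65 ± 0.13 (SE, 95% interval 0.36 to 0.94, limma adjusted p = 0.0166). A second Wnt6 probe of similar brightness read 9.07 and 9.02 in the Dicer cKO pools, against 8.61, 8.27 and 8.30 in the control pools (0.65 ± 0.12, SE, limma adjusted p = 0.0104 over all probes). A dim further probe read 5.39 and 5.38 in the Dicer cKO pools and 5.06, 5.12 and 4.86 in the control pools, and was not called (0.37 ± 0.14, SE, limma adjusted p = 0.175 over all probes). The Wnt6 call was lost without Dicer cKO pool 10 (0.52, adjusted p = 0.20), without control pool 9 (0.64, adjusted p = 0.0517) and with median scaling (0.60, adjusted p = 0.0582), and that of the second probe was lost without Dicer cKO pool 10 (adjusted p = 0.122).

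Wnt10a was low on these arrays. Its single probe read 5.89 and 6.24 in the Dicer cKO pools, against 5.06, 4.79 and 4.73 in the control pools, and it was detected on both Dicer cKO arrays and on 1 of the 3 control arrays. The groups did not overlap, and unlike Wnt4, Wnt6 and Wnt7b the higher of the Dicer cKO values was in pool 12. On control arrays 7, 9 and 11 its detection p was 0.0170, 0.105 and 0.141. The fit called it higher, but its probe passed the filter through the Dicer cKO arrays, so the call is a description only. The size of the difference is not given, because the control mean lies below the lowest level that counts as detected on any array. As deposited, the mean bead intensities were 84.9 and 107.8 in the Dicer cKO pools and 67.3, 57.9 and 53.3 in the control pools. Wnt10a was called in the 12 settings that tested it, which is a description only. It was not tested where detection on all arrays was required, which left 3 called ligands.

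Wnt2b was detected on 0 arrays. Its 2 probes read between 4.33 and 4.52 in the Dicer cKO pools and between 4.37 and 4.51 in the control pools, and no comparison was made.

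**Figure D2:**
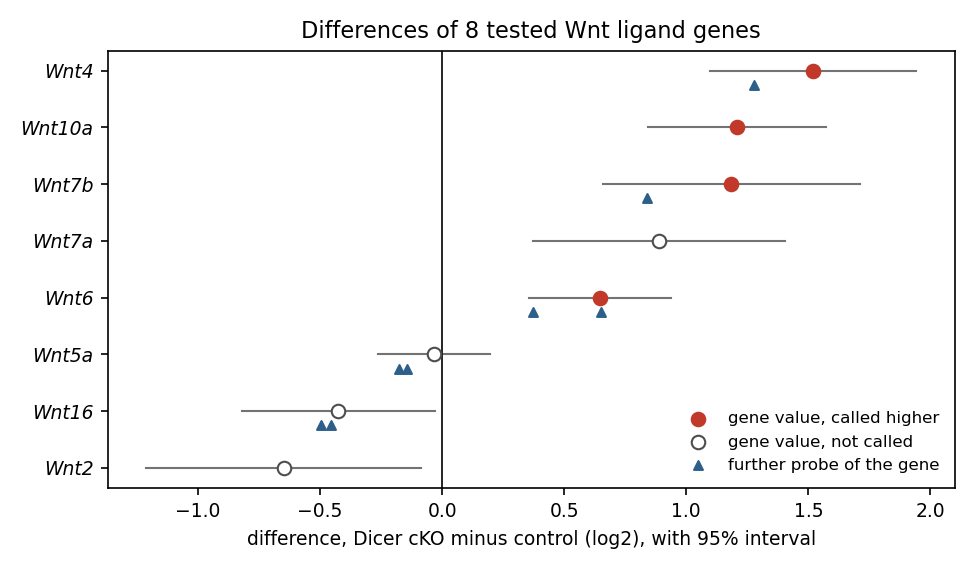
Difference between Dicer cKO and control pools in log2 signal (horizontal axis) for the 8 tested Wnt ligands, with 95% intervals from the limma fit; filled circles are called, open circles are not, and triangles are further tested probes of a gene. The intervals of Wnt4, Wnt7b, Wnt10a and Wnt6 lie to the right of 0, as does that of Wnt7a (0.37 to 1.41), which was not called. Those of Wnt2 (-1.21 to -0.09) and Wnt16 (-0.82 to -0.03), also not called, lie to the left. The Wnt5a interval, -0.26 to 0.20, spans 0. Unlike the calls, the intervals are not adjusted for the number of genes. That of Wnt10a is a description only, since its probe passed the filter through the Dicer cKO arrays.

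All ligand calls came from the same 5 pools, but they were not equally stable when a pool was left out or a setting changed. Between 3 and 5 ligands were called in each of the 13 other settings. Wnt4 was among them every time. Wnt10a was among them wherever it was tested, which is a description only. It was near background in the control pools and passed the reported filter through its detection on the Dicer cKO arrays. Without Dicer cKO pool 10 the called ligands were Wnt4, Wnt10a and Wnt16, the last of these lower. Without Dicer cKO pool 12 they were Wnt4, Wnt6, Wnt7b and Wnt10a, all higher, and Wnt2, which was lower.

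**Figure D3:**
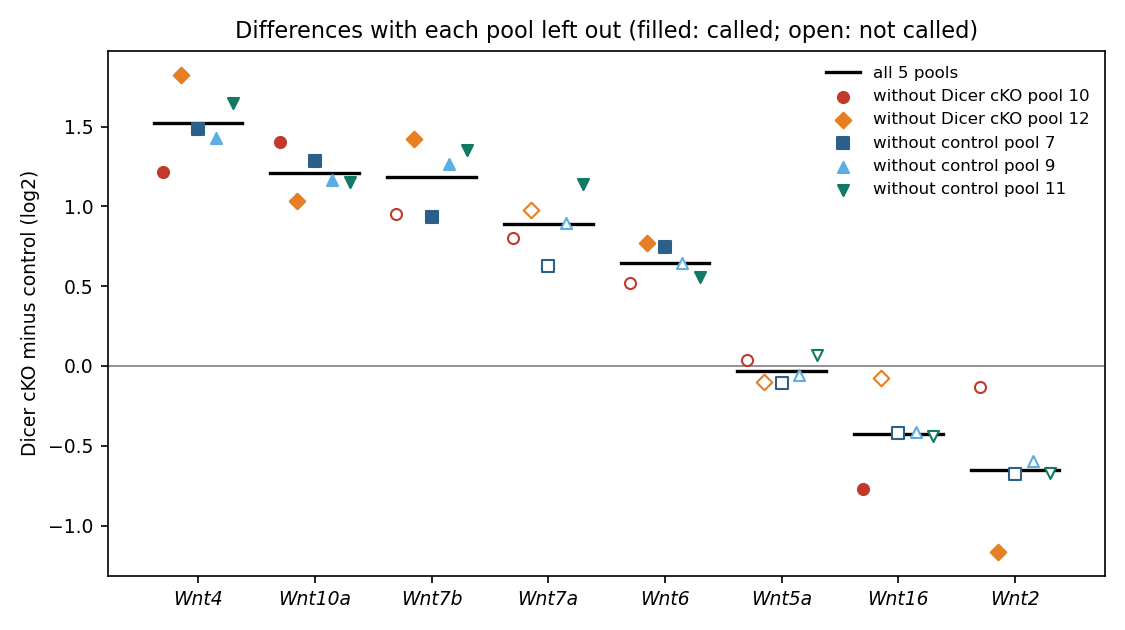
Difference between Dicer cKO and control pools in log2 signal for each tested Wnt ligand, with all 5 pools (black line) and with each pool left out in turn; filled points are called at an adjusted p under 0.05. Wnt4 keeps its call in each case, while Wnt2 moves between -1.16 and -0.13 depending on which Dicer cKO pool is left out. Wnt10a keeps its call too, but it was near background in the control pools and passed the filter through the Dicer cKO arrays.

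In the control uterus the order of the ligands by the signal of their brightest probe ran from Wnt5a to Wnt2b. Wnt5a averaged 11.95 ± 0.18, Wnt7a 8.83 ± 0.51, Wnt6 8.44 ± 0.19, Wnt16 8.10 ± 0.02 and Wnt4 7.11 ± 0.23 (SD, n = 3 control pools). Below these came Wnt2 at 6.27 ± 0.09, Wnt7b at 6.06 ± 0.43, Wnt10a at 4.86 ± 0.18, Wnt11 at 4.84 ± 0.32 and Wnt2b at 4.42 ± 0.03 (SD, n = 3). The ranges of neighbours overlapped between Wnt7a and Wnt6, between Wnt2 and Wnt7b and between Wnt10a and Wnt11, so these pairs have no order. This is an order of array signals and not of transcript amounts, since each probe binds with its own strength: probes of the same gene differed in control mean by 3.53 on the log2 scale for Wnt5a and by 3.43 for Wnt6. In the Dicer cKO pools Wnt4 had a mean of 8.63, above Wnt16 at 7.68, and Wnt2, with a mean of 5.62, stood below Wnt7b at 7.24. Wnt2 and Wnt10a, with a mean of 6.07, had overlapping ranges there and no order.

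Most other genes of the Wnt pathway were not called. Of 93 genes in 8 lists of other pathway members, 64 were tested, 6 rose, 2 fell and 56 were not called, with a median difference of 0.05, against 0.01 over all genes. By the same fit 2.78% of all genes rose and 3.96% fell. Of the other Wnt ligand genes only Wnt5b, a polarity-branch ligand, passed the filter, with a difference of 0.17 ± 0.11 (SE, limma adjusted p = 0.439), and the probes of the other 8 were detected on 0 arrays.

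Among the genes for processing and release of Wnt proteins, 1 rose and 1 fell of 4 tested, where 2.78% of all genes rose and 3.96% fell. Notum, a secreted enzyme that removes the lipid from Wnt proteins and so inactivates them, rose: its levels were 7.99 and 7.69 in the Dicer cKO pools, against 6.57, 6.64 and 6.61 in the control pools (1.23 ± 0.13, SE, limma adjusted p = 6.03e-04). Porcn, the enzyme that adds that lipid, fell: its levels were 8.66 and 9.09 in the Dicer cKO pools, against 9.78, 9.52 and 9.49 in the control pools (-0.72 ± 0.14, SE, limma adjusted p = 0.0139). The groups overlapped for neither gene. The Porcn call was lost without Dicer cKO pool 10 (-0.51, adjusted p = 0.145). Wls, the carrier that brings Wnt proteins to the cell surface, differed by -0.13 (limma adjusted p = 0.604).

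Of 14 tested receptors and co-receptors, 1 rose and none fell. That was Fzd10, a Frizzled receptor, with 9.33 and 9.24 in the Dicer cKO pools and 8.12, 8.43 and 8.64 in the control pools (0.89 ± 0.14, SE, limma adjusted p = 0.00523; lost without Dicer cKO pool 10, adjusted p = 0.0791). None of 9 tested secreted inhibitors was called; Dkk3 differed by 0.28 ± 0.09 (SE, limma adjusted p = 0.103) and Wif1, which binds Wnt proteins directly, by -0.36 ± 0.16 (SE, limma adjusted p = 0.252). Of 4 tested genes of R-spondin signalling, which raises the number of Frizzled receptors at the surface, 1 fell. It was the R-spondin receptor Lgr5, at 7.53 and 7.59 in the Dicer cKO pools against 8.53, 8.47 and 8.54 in the control pools (-0.95 ± 0.10, SE, limma adjusted p = 5.86e-04). Each of these 3 lists thus had at most 1 called gene, where 2.78% of all genes rose and 3.96% fell.

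None of 13 tested core components of the beta-catenin branch was called; the closest to the threshold were Tcf7 (0.38 ± 0.16, SE, limma adjusted p = 0.193) and Pygo2 (-0.21 ± 0.09, SE, limma adjusted p = 0.216). Of 11 tested feedback and target genes, 4 rose and 1 fell, where 2.78% of all genes rose and 3.96% fell. Notum and Lgr5 are in this list as well and have been given. Sp5, a transcription factor that beta-catenin signalling induces, rose, with 7.81 and 7.91 in the Dicer cKO pools and 7.03, 6.86 and 6.88 in the control pools (0.94 ± 0.12, SE, limma adjusted p = 0.00157). Ccnd1, the cell-cycle gene for cyclin D1, rose, with 11.65 and 11.73 in the Dicer cKO pools and 11.01, 11.16 and 11.26 in the control pools (0.54 ± 0.09, SE, limma adjusted p = 0.00529). Axin2, a negative feedback gene of the pathway that was named after its values were seen, rose as well. Its levels were 10.18 and 10.25 in the Dicer cKO pools, against 9.70, 9.79 and 9.75 in the control pools (0.46 ± 0.08, SE, limma adjusted p = 0.00805), and the call was lost without Dicer cKO pool 10 (0.50, adjusted p = 0.0519). The groups did not overlap for Sp5, Ccnd1 or Axin2. The further probes of Notum (1.47 and 1.23), Fzd10 (1.0 and 0.93), Ccnd1 (0.62 and 0.69) and Porcn (-1.02) that passed the filter were called in the same direction over all probes. Of 13 tested genes of planar polarity and calcium signalling, only Camk2a, a calcium-dependent kinase, rose (0.78 ± 0.15, SE, limma adjusted p = 0.0135), and its call was lost without either of the Dicer cKO pools (adjusted p = 0.117 without pool 10 and 0.0593 without pool 12) and with no filter (adjusted p = 0.0576).

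**Figure D4:**
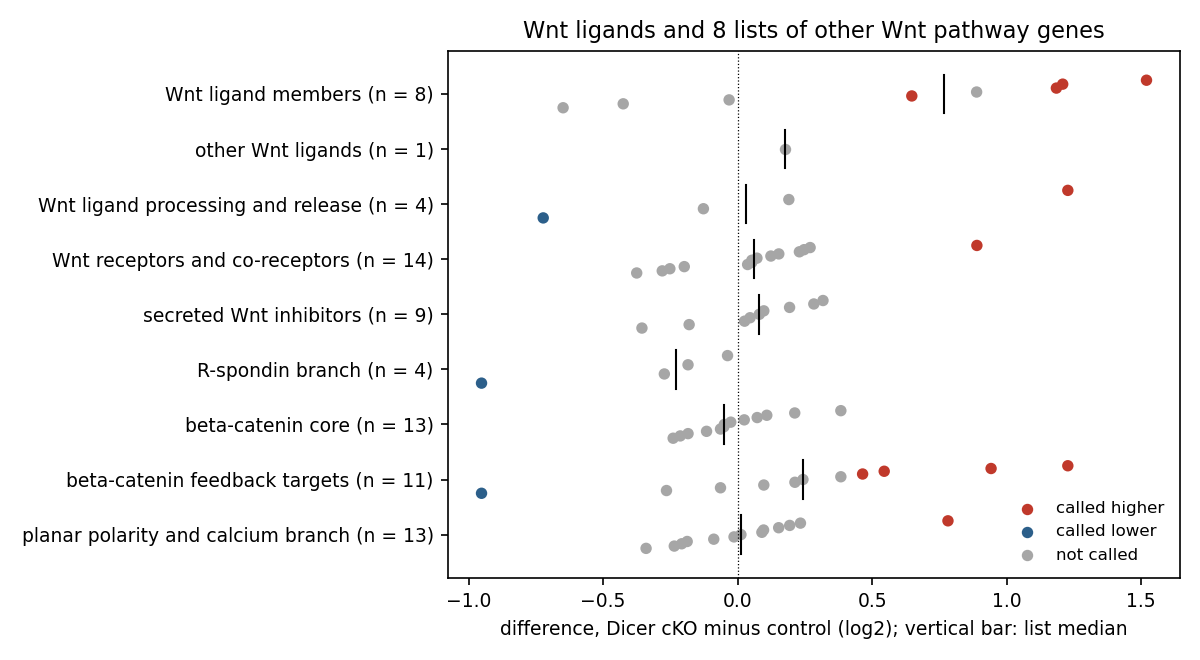
Difference between Dicer cKO and control pools in log2 signal for each tested gene of the Wnt ligand set and of 8 lists of other pathway genes, 1 point per gene, coloured by call, with a vertical bar at each list's median. Most points lie near 0; Notum at 1.23 and Lgr5 at -0.95 are the outermost called genes outside the ligand set.

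For each ligand that rose, the 3 tested genes nearest to it in pattern were found by the Euclidean distance between mean-centred log2 levels over the 5 pools. For Wnt4 they were Gipc2 (distance 0.324), Igsf9 (0.346) and B3gat1 (0.372), all of which rose. For Wnt6 they were Krt7, a keratin of simple epithelia (0.119), Taf6 (0.127) and Tmod4 (0.158), of which Krt7 was called. For Wnt7b they were Slc35g1 (0.0937), the histone gene H3c2 (0.328), whose near-identical copies the probe may not separate, and Cela1 (0.335). For Wnt10a they were the gene the array names ABP1 (0.347), Prtg (0.355) and Sprr2f (0.358), a small proline-rich gene of the epithelium. With 5 pools these distances describe likeness in these arrays and carry no test. The genes were picked for likeness to a ligand that rose, so their own rise follows from that choice.

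Marker genes of several cell types moved beside the ligands, and their part in the ligand differences was not tested. Beside the counts in each marker list, 2.78% of all tested genes rose and 3.96% fell by the same fit. In whole tissue, fewer cells of a type and less RNA per cell cannot be told apart. The defining markers of the uterine layers were measurable: of the epithelial, stromal and smooth muscle markers, 15 of 16, 15 of 15 and 10 of 10 were tested. Epcam, an epithelial surface protein, was detected on 0 arrays.

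Epithelial markers, which mark the cells known to make Wnt7a, had a summed linear signal of 10357 and 10162 in the Dicer cKO pools, against 15714, 13878 and 12507 in the control pools; 3 rose and 6 fell. The junction gene Cldn3 fell by 1.48 ± 0.17 and the vesicle gene Rab25 by 1.20 ± 0.09 on the log2 scale (SE, limma adjusted p = 0.00109 and 8.23e-05). Stromal markers had summed signals of 39456 and 44570 in the Dicer cKO pools, against 49824, 47846 and 48350 in the control pools; none of the 15 rose and 5 fell, among them Nt5e (-1.43 ± 0.16) and Thy1 (-0.79 ± 0.11, SE, limma). Both sums were lower in the Dicer cKO pools, and each is weighted to the brightest genes of its list. Whether this bears on the ligand differences was not tested.

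Stratified epithelium markers stood at summed signals of 1299 and 1143 in the Dicer cKO pools, against 335, 363 and 318 in the control pools. The control tissue was not free of them, since Krt17 and Trp63 were detected on all 3 control arrays. Of 6 tested, 3 rose, led by Lce3c (3.16 ± 0.18) and the keratin Krt17 (2.60 ± 0.12, SE, limma). Ivl, a cornified envelope gene, was not detected on the control arrays and was at least 2.65-fold higher in the Dicer cKO pools. Ivl and Krt5, the latter detected on 1 of the 3 control arrays, passed the filter through the Dicer cKO arrays. The count and the sums that include them are therefore descriptions. The other tested members were not called: the basal cell factor Trp63 differed by -0.39, with both Dicer cKO pools below all control pools, Krt5 by 0.12 and Sprr1a by 0.14. Krt6a, Sprr3 and Dsg3 were detected on 0 arrays and Krt14 on 1. Leukocyte markers summed to 1603 and 1971 in the Dicer cKO pools, against 1155, 1122 and 1305 in the control pools, with 2 of 6 tested higher (Lyz2, 0.83 ± 0.13, and Cd68, 0.81 ± 0.13, SE, limma), while Ptprc and Itgam were detected on 0 arrays.

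The sums of smooth muscle markers were 67157 and 69231 in the Dicer cKO pools and 64739, 64345 and 66969 in the control pools, and those of endothelial markers were 5656 and 6324 in the Dicer cKO pools and 6552, 5858 and 6546 in the control pools, with no member called in either list. Mesothelial markers summed to 3850 and 4273 in the Dicer cKO pools and 4257, 4404 and 3985 in the control pools, with 1 of 6 lower. That gene was Krt19, which is also in the epithelial list and was counted there. Markers of ovary, oviduct and fat, tissues that border the dissected uterus, summed to 810 and 1652 in the Dicer cKO pools, against 3872, 2985 and 2077 in the control pools, and 3 of 6 tested fell. The brightest of the list was the fat gene Cfd, with levels of 8.99 and 10.26 in the Dicer cKO pools and 11.47, 11.04 and 10.50 in the control pools, whose call was lost in 7 of 13 other settings, and that of Adipoq, also of fat, was lost in 3. Inha (-0.04), Cyp11a1 (0.23) and Foxj1 (0.12) were not called. The oviduct gene Ovgp1 had the largest of these differences (-2.57 ± 0.39, SE, limma), a call lost without Dicer cKO pool 10 (adjusted p = 0.0600) and with a robust spread (adjusted p = 0.104). Amh, Star, Fabp4 and Plin1 of that list were detected on 0 arrays.

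**Figure D5:**
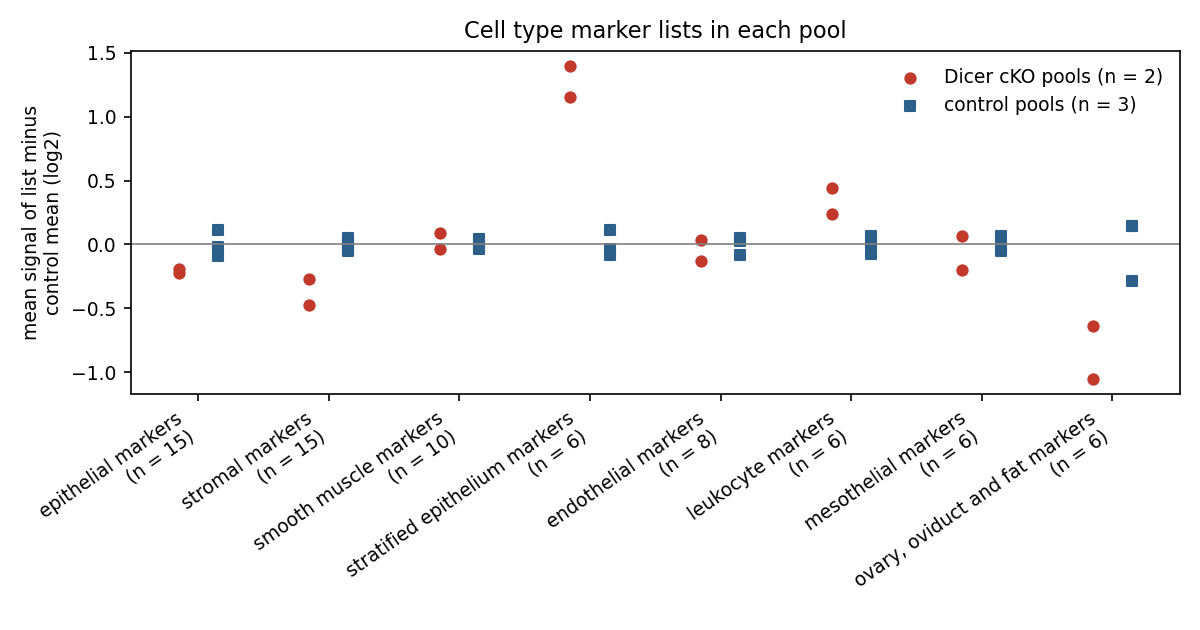
Mean log2 signal of the tested markers of each list in each pool, less the mean of the control pools (vertical axis), with Dicer cKO pools left of control pools; points are single pools. The stratified epithelium points of the Dicer cKO pools stand above those of the control pools and the epithelial and stromal points stand below. The stratified epithelium list includes Ivl and Krt5, which passed the filter through the Dicer cKO arrays.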

How the data were processed

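Per the file headers, the deposited files give each probe's linear intensity averaged over beads, with the SD over beads, the number of beads and a detection score that rose with signal from 0 to 1. Per the submitters' processing notes, BeadStudio was used, with no version named. The values had not been normalized between arrays. One minus the deposited detection score served as the detection p. A further deposited value table was not used, because its row names matched no probe of the array files.

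From these intensities, neqc of limma 3.58.1 in R 4.3.3 gave log2 levels (normexp from detection p, offset 16, quantile normalization). Probes were kept if 2 or more of the 5 arrays had a detection p below 0.05, and the probe with the highest mean stood for a gene. Groups were compared with limma (lmFit, eBayes with an intensity trend, 2-sided, Benjamini-Hochberg over all genes, called under 0.05); further probes come from the same fit over all probes. An exact permutation test over the 10 splits of 2 and 3 pools cannot go below p = 0.1, so none was used. The number of arrays limits the precision. No slide or batch is named in the labels. "At least" folds set the brighter mean against the dimmest signal that counts as detected on each array.

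The ligands and all gene lists were chosen with earlier results of these data known. Named genes were all ligands, up to 4 called genes per pathway list by size of difference (the 2 nearest the threshold where none was called), up to 3 per marker list, and the 3 nearest genes in pattern to each called ligand. Promoter windows and gene neighbours are from RefSeq. Alternatives were the background correction, offset, scaling, filter, probe rule, trend, robust spread and leaving out each pool.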

Additional observations from a re-analysis of the deposited data

How the results depend on the processing

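The 4 ligand calls, all higher, ranged from 3 to 5 over 13 other settings, and the differences of Wnt4, Wnt6, Wnt7a, Wnt7b and Wnt10a were positive in all of those that tested them. A ligand was called lower in 2 of them: Wnt16 without Dicer cKO pool 10 and Wnt2 without Dicer cKO pool 12, 1 each. Leaving out 1 pool gave 275 to 956 called genes over the array, 86 to 403 of them higher, and 4 to 9 called pathway genes. Genes called higher numbered 282 with median scaling, 286 with no detection filter and 281 with no intensity trend, against 438 as reported. Wnt5a differed by 0.070 without control pool 11 and by 0.037 without Dicer cKO pool 10, against -0.03 with all pools, and ranged from -0.11 to 0.07 when 1 pool was left out; it was called in none of the settings. The order of ligands in the control pools was recomputed under 8 of the 13 settings (background, scaling and leaving out a pool) and kept 8 to 10 of its 10 positions. Without control pool 9, Wnt10a and Wnt11 changed places. The cause of these changes was not tested. The authors' value table could not be used as an alternative, since its rows could not be matched. No paired analysis was possible because no pool number occurs in both groups. Signals of Wnt10a, Wnt11 and Wnt2b lie near background, which limits what can be said of them.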
